A study of Homo sapiens with 9 samples.

Results

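Most of the genes described here encode ubiquitin-conjugating (E2) enzymes and F-box proteins. They were collected by name, as every probe on the arrays whose gene name starts with UBE2, FBXL, FBXO or FBXW, with UBE2C left out. This gave 161 of 50238 probes and 98 of 31033 gene names, namely 33 UBE2, 19 FBXL, 38 FBXO and 8 FBXW genes. The set was chosen by the control comparisons themselves, because UBE2E1 and FBXL17 were higher in both knockdowns than in the controls. The control comparisons of these 2 genes are therefore a description and carry no test. The other members were taken by their names alone. The names also took in entries such as UBE2MP1 and FBXO22OS, whose transcripts are listed as noncoding, and FBXL21, now named FBXL21P as a pseudogene.

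Ubiquitin reaches a protein through a relay in which an E1 enzyme activates it, an E2 enzyme carries it and an E3 ligase passes it to the substrate. F-box proteins are the substrate-binding subunits of SCF ligases, in which SKP1 joins them to the cullin CUL1. FBXL proteins bind substrates through leucine-rich repeats, FBXW proteins through WD40 repeats, and FBXO proteins through other domains. In cycling epithelial cells these enzymes time the removal of cyclins, signalling proteins and misfolded proteins.

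RNA came from DLD1 cells, a human colorectal cancer line, in 3 untreated controls, 3 cultures with Lamin A/C Kd and 3 with Lamin B2 Kd. Each knockdown used 100 nM of siRNA for 48 h, and no array held cells given a control siRNA, so the effect of transfection cannot be told apart from that of the knockdown. Labelled RNA of each culture was hybridized to 1 single-color Agilent array. All values are the log2 of the probe's signal minus the median of its array, called the level below, so that 1 unit is a doubling and 0 is the median spot. Levels of different probes are not set against each other, and in a bulk culture fewer cells with a transcript cannot be told apart from less transcript per cell.

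The share of spots marked as well above background ran from 65.6 to 74.1% over the arrays. Each targeted transcript was lower in its own knockdown. The 2 LMNA probes differed from controls by -3.83 and -3.80 in the Lamin A/C Kd cultures (limma adjusted p = 0.000225 and 0.000313), and LMNB2 differed by -2.32 in Lamin B2 Kd (limma adjusted p = 0.000523). Of 10 colon epithelium marker genes on the array, 9 were above background on all 9 arrays, against 1 of 6 fibroblast, 4 of 5 leukocyte and 2 of 4 endothelial marker genes. Lamin B2 Kd replicate 3 was the only array on a second slide and stood apart from its group in several members. Values without it are given where leaving it out ended a call or moved a value by over 1.5 times, and for the larger differences that rest on it.

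Of the 161 E2 and F-box probes, 136 were well above background on all 9 arrays and 11 on 0 arrays. A comparison took in a probe if either group had it well above background on each of its 3 arrays, which left 140 probes of 90 genes. FBXL21, FBXL22, FBXO22OS, FBXO27, FBXO39, FBXO40, FBXO47 and UBE2U had no tested probe. Among them FBXO40 is known mainly from skeletal muscle and FBXL22 from heart muscle. A probe is called where its fold is at least 2 with an unadjusted p under 0.05 in limma, and the Benjamini-Hochberg adjusted p over all probes tested is also given. Groups without overlap were common. Over all probes tested, 15.2% lay wholly above the controls and 25.8% wholly below in Lamin A/C Kd. In Lamin B2 Kd these shares were 5.82 and 26.1%.

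UBE2E1 encodes an E2 enzyme with a long N-terminal extension, closely related to UBE2E2 and UBE2E3. The gene lies on chromosome 3 and has a single probe here, of transcript NM_003341. The files give no position for the probe. It is shown because its signal is the only measure of UBE2E1 on these arrays, in the order in which the files list it, with 35.0% G and C.

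UBE2E1 NM_003341: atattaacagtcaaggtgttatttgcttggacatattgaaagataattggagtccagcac

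The level of UBE2E1 was 0.33, -0.19 and 2.02 on the control arrays, 2.81, 2.24 and 3.53 in Lamin A/C Kd, and 3.05, 2.79 and 3.72 in Lamin B2 Kd. Every knockdown array was above every control array, but control replicate 3 lay just under the lowest knockdown array, and the controls had an SD of 1.16 (n = 3). The mean was higher by 2.14 (4.40-fold) in Lamin A/C Kd and by 2.47 (5.53-fold) in Lamin B2 Kd. Without control replicate 3 the differences were 2.79 and 3.12. With the normexp background correction they were 1.59 and 1.92. That correction adds an offset of 50 to each signal, while the median signal of the arrays ran from 63.0 to 82.6. By construction it makes the differences of faint probes smaller.

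The knockdowns were also set against each other, a comparison that did not itself choose the gene. But UBE2E1 was chosen for being higher in both knockdowns on these same arrays, so this test is not wholly free of that choice. The UBE2E1 difference, Lamin A/C Kd minus Lamin B2 Kd, was -0.33 with a 95% interval from -1.55 to 0.90 (limma adjusted p = 0.724). The sister enzymes moved little. UBE2E2 had levels of 3.37, 3.32 and 3.54 in controls, 3.07, 2.95 and 3.04 in Lamin A/C Kd, and 3.28, 3.39 and 3.35 in Lamin B2 Kd. Its 3 Lamin A/C Kd arrays lay below all controls, with a difference of -0.39 that did not pass the adjusted test (limma adjusted p = 0.0583). The 2 probes of UBE2E3 differed from controls by 0.02 and -0.04 with Lamin A/C depleted and by -0.22 and -0.23 with Lamin B2 depleted.

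FBXL17, on chromosome 5, encodes an F-box protein known for quality control of BTB domain dimers. It has 4 probes that did not behave alike. Their sequences are shown because only the BC018548 probe was at least 2-fold higher in the knockdowns. The first 30 bases are given for the BC018548 and BC063316 probes and all 60 for the others.

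FBXL17 BC018548: tttaaatgttgcattgtttgaatctaaagt
FBXL17 BC063316: cgggcactccggcggcccgcagctgacgcc
FBXL17 NM_001163315, the first probe: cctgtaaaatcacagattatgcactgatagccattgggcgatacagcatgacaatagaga
FBXL17 NM_001163315, the second probe: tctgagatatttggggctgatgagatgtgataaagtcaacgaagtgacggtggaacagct

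The whole BC018548 probe is 35.0% G and C, as the UBE2E1 probe is, whereas the BC063316 probe is 78.3% and the NM_001163315 probes 41.7 and 45.0%. The level of the BC018548 probe was -2.69, -2.49 and -4.36 in controls, -0.19, -1.39 and 0.66 in Lamin A/C Kd, and -0.23, -1.73 and 0.18 in Lamin B2 Kd. It was above background on 0 of 3 control arrays and on all 6 knockdown arrays. The control level is thus only a bound. With each control array set to its lowest signal well above background, the probe was at least 3.56-fold higher with Lamin A/C depleted and at least 2.93-fold with Lamin B2 depleted. Within each group the arrays still spread widely, with an SD of 1.03 in controls, 1.03 in Lamin A/C Kd, and 1.003 in the other knockdown (n = 3 each).

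The difference of that probe between the knockdowns was 0.28, with a 95% interval from -1.25 to 1.81 (limma adjusted p = 0.812). As for UBE2E1, this test is not wholly free of the choice of the gene. The BC063316 probe was above background on every array and differed from controls by 0.01 with Lamin A/C depleted and 0.14 with Lamin B2 depleted. Both NM_001163315 probes were not well above background on any array. In the authors' table the 4 probes share 1 row, where the differences are 0.01 and 0.16. With the normexp background correction, whose offset shrinks differences at such low signals, the BC018548 probe differed by 0.89 and 0.72. Its spot and that of UBE2E1 sit in the same array row, 105, at columns 62 and 69. Spots of other genes in the same stretch of the array differed from controls by -0.84 to 0.91 in either knockdown.

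**Figure D1:**
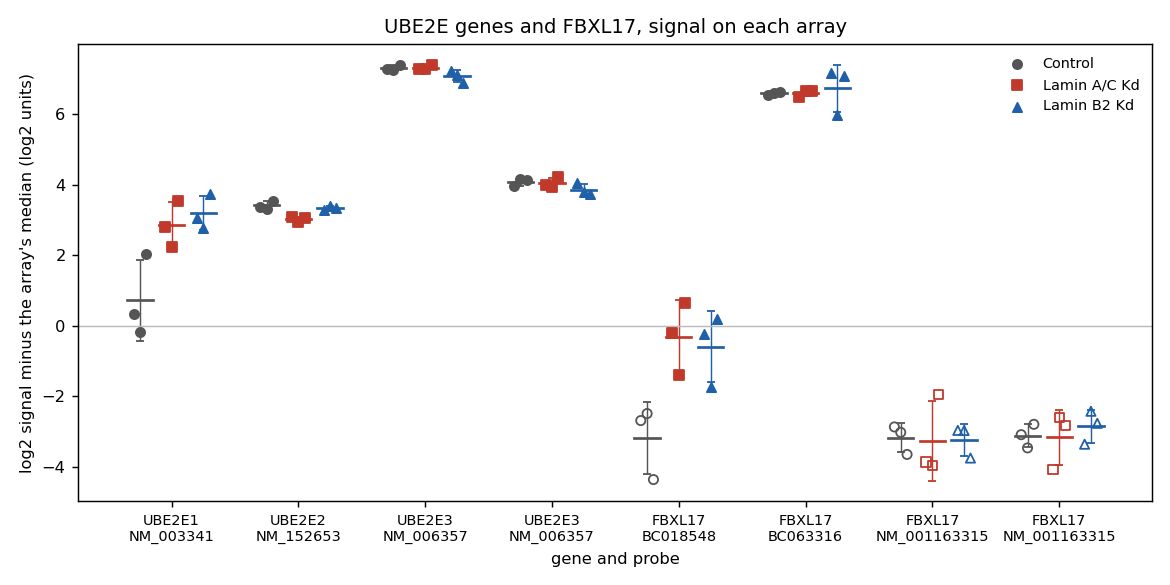
The level (log2 signal minus the array's median, vertical axis) of every probe of UBE2E1, UBE2E2, UBE2E3 and FBXL17 on each array, labelled by accession. Points are arrays, bars are group means with SD (n = 3), and open points mark groups not above background on all 3 arrays. UBE2E1 goes from a mean of 0.72 in controls to 2.86 and 3.19. Of the 4 FBXL17 probes only that of BC018548 is at least 2-fold higher in both knockdowns.

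In Lamin A/C Kd, 8 of 140 tested E2 and F-box probes were called, 3 higher and 5 lower, which is 5.71% against 2.32% of all probes tested. With the adjusted p the count was 11 (3 higher, 8 lower), or 7.86% against 9.15%. Since this comparison helped choose the set, nothing is read from these shares. The adjusted count depended on the processing. It was 13 higher and 12 lower after a 75th percentile shift, 12 and 9 after quantile normalization, and 4 and 25 with normexp. Without Lamin B2 Kd replicate 3, which enters this comparison only through the shared variance, it was 11 and 21. Members with an adjusted p just over 0.05 are thus not settled. Apart from UBE2E1 and FBXL17, 6 probes of 4 genes were called, FBXO32 higher and FBXO48, FBXO4 and FBXO34 lower. Of these 137 probes, 118 were within 0.5 of the controls. The FBXO34 call is that of a probe whose target was not checked. The largest differences above the controls without overlap, after FBXO32, were those of FBXO3 by 1 of 3 probes (0.63), FBXO6 (0.57) and FBXL2 (0.53), and none of them passed (limma adjusted p = 0.0561, 0.0847 and 0.0783).

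FBXO48, on chromosome 2, is an F-box gene with little known of its substrates. Its first probe had levels of 0.92, 0.95 and 1.07 in controls, -0.21, -0.50 and -0.13 in Lamin A/C Kd, and 0.62, 0.60 and 0.52 in Lamin B2 Kd. Its second probe had 0.04, 0.23 and 0.44 in controls, -0.74, -1.01 and -0.84 in Lamin A/C Kd, and 0.05, -0.01 and 0.10 in Lamin B2 Kd. For both probes the Lamin A/C Kd arrays lay below all 6 other arrays.

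The FBXO48 differences in Lamin A/C Kd were -1.26 and -1.10 (SE 0.13 each, limma adjusted p = 0.00112 and 0.00264). In Lamin B2 Kd they were -0.40 and -0.19 and did not pass (limma adjusted p = 0.105 and 0.393). Between the knockdowns FBXO48 was lower in Lamin A/C Kd by both probes, with differences of -0.86 and -0.91 (limma adjusted p = 0.00284 each). With normexp the Lamin A/C Kd differences were -0.72 and -0.50.

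FBXO4, on chromosome 5, encodes an F-box protein known for binding cyclin D1 and the telomere protein TRF1. Both probes, shown because they are separate stretches with the same change, fell in Lamin A/C Kd.

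FBXO4 NM_012176, the first probe: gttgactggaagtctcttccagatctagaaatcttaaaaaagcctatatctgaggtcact
FBXO4 NM_012176, the second probe: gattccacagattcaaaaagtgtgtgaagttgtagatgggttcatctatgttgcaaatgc

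The first FBXO4 probe had levels of 0.42, 0.47 and 0.52 in controls, -0.27, -0.88 and -0.56 in Lamin A/C Kd, and -0.10, -0.23 and -0.58 in Lamin B2 Kd. The second had 2.79, 2.75 and 2.81, then 1.85, 1.75 and 1.63, then 2.20, 2.25 and 1.81. All 6 knockdown arrays were below all controls by both probes. The differences were -1.04 and -1.04 in Lamin A/C Kd (limma adjusted p = 0.00938 and 0.00399). In Lamin B2 Kd they were -0.77 and -0.70, under a fold of 2 but past the adjusted test (limma adjusted p = 0.0477 and 0.0337). In Lamin A/C Kd they lie near the limit of a fold of 2, and a 75th percentile shift moves them under it, to -0.97 each. With normexp only 1 member probe was called lower in Lamin A/C Kd, so at least 1 FBXO4 probe lost its call.

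FBXO32, known as atrogin-1 and for protein breakdown in wasting muscle, had levels of -0.41, -0.70 and -0.63 in controls, 0.64, 0.32 and 0.74 in Lamin A/C Kd, and 0.04, 0.08 and -0.39 in Lamin B2 Kd. It rose in Lamin A/C Kd by 1.14 (SE 0.17, limma adjusted p = 0.00617). In Lamin B2 Kd the difference was 0.49 (limma adjusted p = 0.137). The difference between the knockdowns, 0.66, passed the adjusted test (limma adjusted p = 0.0314). With normexp the Lamin A/C Kd difference was 0.55.

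FBXO34, on chromosome 14, is a poorly characterized F-box gene with 3 probes that disagree. Only the probe of AF531436 was called, so it is shown whole beside the first 30 bases of the 2 probes of NM_017943. Which transcript the AF531436 probe measures was not checked, so its call is not settled as a change of FBXO34.

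FBXO34 AF531436: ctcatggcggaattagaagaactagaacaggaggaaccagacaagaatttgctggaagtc
FBXO34 NM_017943, the first probe: tataatggttgtgttttcatggggctatga
FBXO34 NM_017943, the second probe: gggatattgatgggagagctactaagagaa

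The AF531436 probe had levels of 6.16, 6.09 and 6.29 in controls, 4.70, 5.20 and 4.25 in Lamin A/C Kd, and 5.15, 6.06 and 4.03 in Lamin B2 Kd. All knockdown arrays were below the controls, but Lamin B2 Kd replicate 2 was nearly at their level. The differences were -1.46 and -1.10, called by fold and unadjusted p but not by the adjusted test (limma adjusted p = 0.0725 and 0.178). Without Lamin B2 Kd replicate 3 the second was -0.57. The first NM_017943 probe differed by 0.02 and -0.32, with the Lamin B2 Kd arrays just below the controls, and the second was too close to background to be tested.

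**Figure D2:**
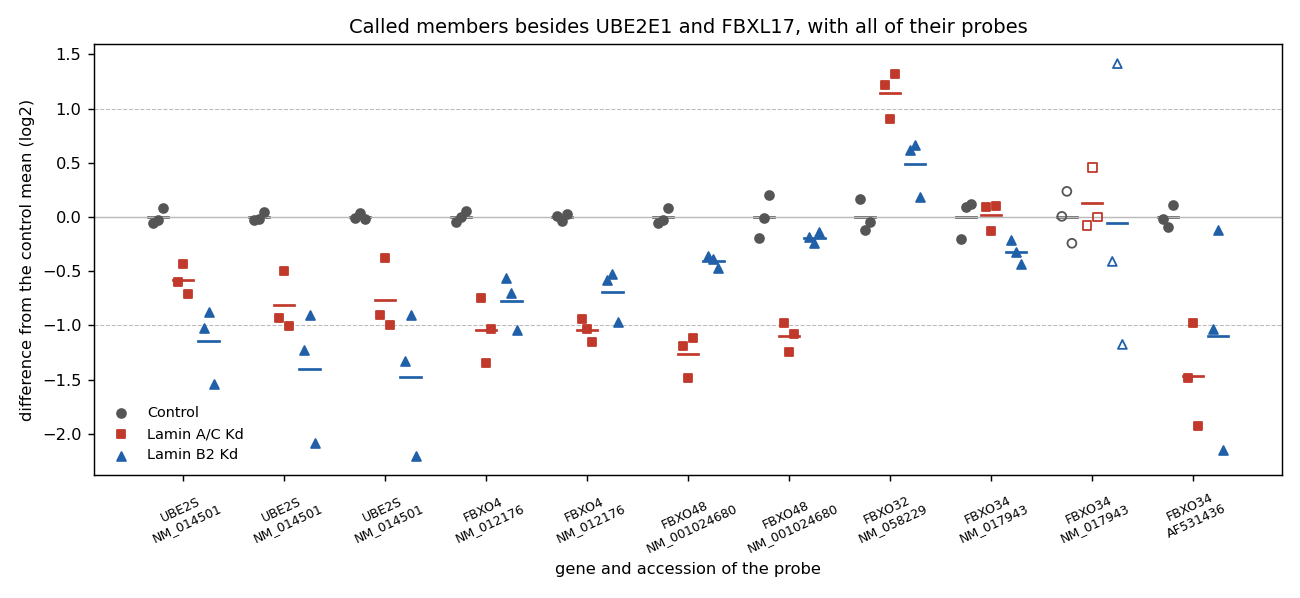
Every probe of UBE2S, FBXO4, FBXO48, FBXO32 and FBXO34, as the difference of each array from the mean of the controls (log2, vertical axis), labelled by accession. Points are arrays, bars are group means, dashed lines mark a fold of 2, and open points mark groups not above background on all 3 arrays. FBXO48 is low in Lamin A/C Kd, UBE2S is lowest in Lamin B2 Kd, and of the FBXO34 probes only that of AF531436 passes a fold of 2.

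In Lamin B2 Kd, 6 of 139 tested probes were called, 2 higher and 4 lower, which is 4.32% against 1.98% of all probes. With the adjusted p there were 9 (1 higher, 8 lower), or 6.47% against 4.12%, and again nothing is read from these shares. The adjusted count was 3 higher and 6 lower after a 75th percentile shift, 2 and 7 after quantile normalization, and 1 and 21 with normexp. Both knockdowns were compared with the same 3 controls. Apart from UBE2E1 and FBXL17, the called probes were the 3 of UBE2S and the AF531436 probe of FBXO34. The median of all probes was itself -0.14 in Lamin B2 Kd and moved by 0.20, to 0.06, with a 75th percentile shift. Of the E2 and F-box probes 110 were lower and 29 higher than controls, and 77 lower and 62 higher after the 75th percentile shift. Of the FBXL genes FBXL4, known from mitochondria, fell by 0.64 by 1 of 2 tested probes (limma adjusted p = 0.0437). Its other tested probe differed by -0.84 (limma adjusted p = 0.0741), with all 3 Lamin B2 Kd arrays below all controls. FBXW4 had the largest difference that was not called, -0.98 (limma adjusted p = 0.0845), and its other probe differed by -0.89. Without Lamin B2 Kd replicate 3 these were -0.63 and -0.61. Of the 9 probes that passed the adjusted test, 6 also passed without that array, with FBXL4 and 1 of the FBXO4 probes among the 3 that did not. No member other than UBE2E1 and FBXL17 was called higher, and the largest differences without overlap above the controls, after FBXO32, were 0.25 for UBE2H and 0.22 for 1 UBE2B probe.

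UBE2S, on chromosome 19, is the E2 enzyme that extends ubiquitin chains for the anaphase-promoting complex, the ligase that ends mitosis. Of the UBE2S probes 2 overlap, which is why they are shown: the capitals mark 46 bases that the end of one shares with the start of the other. Counted from the 5′ end of the first, 1 base of the 46 differs, as A24G. They are not independent measures. The third probe shares no such stretch, and its first 30 bases are shown.

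UBE2S, the first probe: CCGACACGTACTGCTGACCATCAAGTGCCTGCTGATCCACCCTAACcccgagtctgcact
UBE2S, the second probe: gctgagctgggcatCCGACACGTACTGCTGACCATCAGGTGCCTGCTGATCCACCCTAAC
UBE2S, the third probe: tgtctctaagttatttaaattatggctggg

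The third UBE2S probe had levels of 8.45, 8.48 and 8.59 in controls, 7.91, 8.07 and 7.79 in Lamin A/C Kd, and 7.48, 7.63 and 6.96 in Lamin B2 Kd. The first had 8.25, 8.26 and 8.33, then 7.35, 7.78 and 7.28, then 7.06, 7.38 and 6.19. By these probes all knockdown arrays were below all controls, and Lamin B2 Kd replicate 3, on its own slide, was the lowest array.

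UBE2S fell in Lamin B2 Kd by all 3 probes, with differences of -1.40 and -1.48 for the overlapping probes and -1.15 for the other (limma adjusted p = 0.0312, 0.0351 and 0.0147). Without replicate 3 they were -1.06, -1.11 and -0.95. In Lamin A/C Kd the differences were -0.81, -0.76 and -0.58 and did not pass (limma adjusted p = 0.103, 0.155 and 0.0729). The knockdowns differed by 0.59, 0.71 and 0.57, which did not pass either (limma adjusted p = 0.183, 0.145 and 0.0569).

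Among the other ubiquitin E2 genes the changes were under 2-fold. UBE2H fell by 0.60 in Lamin A/C Kd by one of its 2 probes (limma adjusted p = 0.0162) and had a difference of 0.25 in Lamin B2 Kd (limma adjusted p = 0.238). UBE2D1 fell by 0.69 in Lamin A/C Kd by one probe (limma adjusted p = 0.00805), whereas its other probe differed by -0.11. UBE2Q1 fell by 0.60 in Lamin A/C Kd by one of 2 probes (limma adjusted p = 0.0170). UBE2L3, which works with HECT and RBR ligases, fell by 0.74 in Lamin B2 Kd by 1 of 3 probes (limma adjusted p = 0.0347), and its other probes differed by -0.15 and -0.24. The UBE2J2 probe with a difference of -0.86 in Lamin A/C Kd was the largest that was not called there (limma adjusted p = 0.0692).

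Some E2 enzymes carry relatives of ubiquitin instead. UBE2M and UBE2F carry NEDD8, which activates cullins. UBE2M differed from controls by -0.40 in Lamin A/C Kd and by -0.13 in the other knockdown, and the 2 probes of UBE2F by -0.31 and -0.32 with Lamin A/C depleted and by -0.32 and -0.41 with Lamin B2 depleted. None of these passed the adjusted test in either control comparison.

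UBE2L6, the interferon-inducible E2 of ISG15, had levels of 1.43, 1.29 and 1.55 in controls, 1.88, 1.999 and 1.75 in Lamin A/C Kd, and 1.39, 1.49 and 1.02 in Lamin B2 Kd. Its Lamin A/C Kd arrays were above all others. It was higher in Lamin A/C Kd than in Lamin B2 Kd by 0.58 (limma adjusted p = 0.0314), and its difference from controls, 0.46, did not pass (limma adjusted p = 0.0960).

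The F-box classes differed little from controls. The median difference in Lamin A/C Kd was -0.15 over 56 UBE2 probes, 0.07 over 22 FBXL, -0.01 over 50 FBXO and -0.08 over 12 FBXW probes. In Lamin B2 Kd it was -0.21, -0.26, -0.24 and -0.22. The medians over all probes tested were -0.05 and -0.14. No FBXW probe passed the adjusted test against controls, among them those of FBXW7, which binds cyclin E and MYC, and FBXW11, a beta-TrCP protein. FBXO31 fell by its AK026130 probe in both knockdowns, by 0.45 and by 0.65 (limma adjusted p = 0.0418 and 0.0225), while its other probe differed by 0.35 and 0.12. FBXO5, the anaphase-promoting complex inhibitor EMI1, differed by -0.37 and -0.26 (limma adjusted p = 0.0576 and 0.182).

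**Figure D3:**
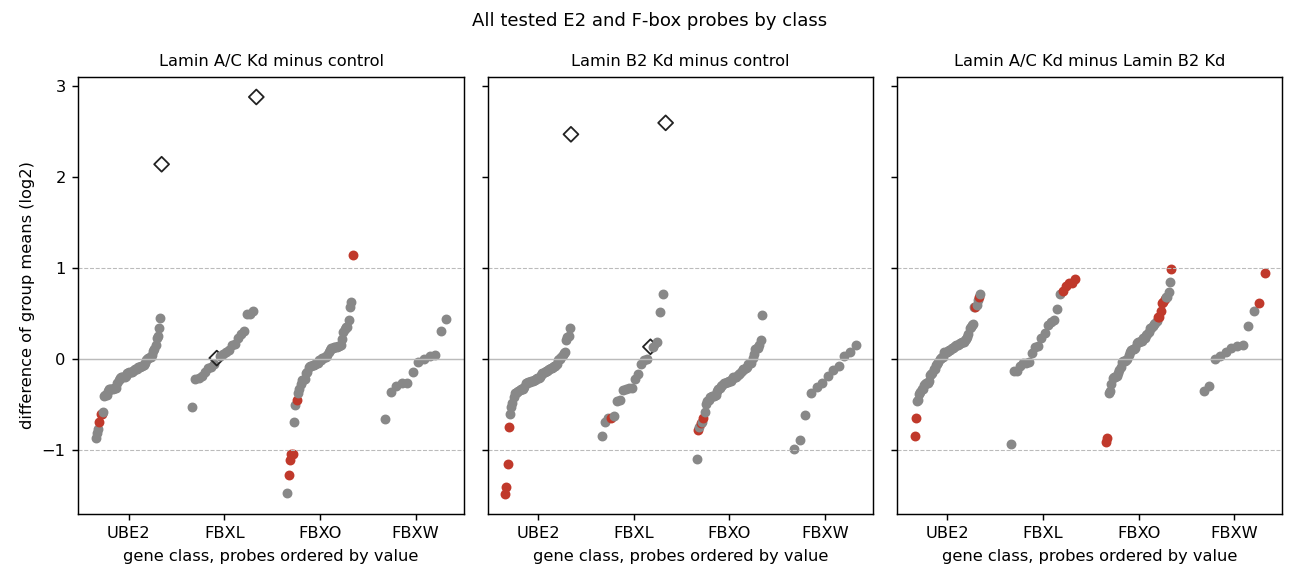
Differences of group means (log2, vertical axis) of all tested E2 and F-box probes, by gene class and ordered by value, in the 3 comparisons. Open diamonds are UBE2E1 and FBXL17, which chose the set, red points have a limma adjusted p under 0.05, and dashed lines mark a fold of 2. In the right panel no probe passes a fold of 2 and 16 of the 20 red points are above 0.

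The knockdowns were set against each other, a comparison that did not choose the set. None of the 140 tested probes was called in limma, against 4.07% of all probes. A 75th percentile shift called 2 and quantile normalization 1. With the adjusted p, 20 members (14.3%) differed against 15.6% of all probes, a share near that of all probes. Of these, 16 were higher and 4 lower in Lamin A/C Kd, and the split was 18 and 13 after the 75th percentile shift and 21 and 12 after quantile normalization.

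FBXO6, a glycoprotein-binding F-box gene of endoplasmic reticulum quality control, came closest to a fold of 2. Its level was 1.11, 1.11 and 0.97 in Lamin A/C Kd and 0.30, 0.26 and -0.35 in Lamin B2 Kd, around controls of 0.31, 0.53 and 0.63. The difference was 0.99 (SE 0.18, limma adjusted p = 0.00746), and 0.78 without Lamin B2 Kd replicate 3. Its relative FBXO2 differed by 0.85 and did not pass (limma adjusted p = 0.0703).

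Of the 22 FBXL probes tested, 5 passed the adjusted test (22.7%, against 15.6% of all probes), 2 of them of FBXL4, and all 5 were higher in Lamin A/C Kd. The share was 7.14% of UBE2, 18% of FBXO and 16.7% of FBXW probes. With so few probes nothing is read from the class share. FBXL2, an F-box protein anchored to membranes, had levels of 0.89, 0.92 and 1.35 in Lamin A/C Kd and 0.30, 0.27 and 0.08 in Lamin B2 Kd, a difference of 0.84 (limma adjusted p = 0.00947). FBXL16 had 2.15, 1.69 and 2.03 against 1.03, 1.21 and 1.14, a difference of 0.83 (limma adjusted p = 0.00488). FBXL15, which binds the ligase SMURF1, differed by 0.75 (limma adjusted p = 0.0144). FBXL4, a mitochondrial F-box protein, differed by 0.80 and 0.88 by 2 probes (limma adjusted p = 0.00680 and 0.0315). The groups did not overlap for any of these. Over all probes tested, 21% lay higher in Lamin A/C Kd without overlap and 11.5% lower.

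FBXL18 went the other way without passing, with a difference of -0.93 (limma adjusted p = 0.0543). FBXW4 differed by 0.95 (limma adjusted p = 0.0483), and its Lamin B2 Kd levels of 2.98, 3.15 and 2.01 show replicate 3 far below the others. Without that replicate its difference was 0.59. The other FBXW4 probe differed by 0.53 and did not pass (limma adjusted p = 0.207). UBE2H and UBE2D1 were lower in Lamin A/C Kd by 1 of 2 probes each. The UBE2H probe had levels of 2.90, 2.90 and 3.08 there against 3.91, 3.77 and 3.74, a difference of -0.84 (limma adjusted p = 0.00235). The UBE2D1 difference was -0.64 (limma adjusted p = 0.00627). The other probes of UBE2H and UBE2D1 differed by -0.36 and -0.45 and did not pass (limma adjusted p = 0.117 and 0.09998), although their groups did not overlap. The other members higher in Lamin A/C Kd by the adjusted test were FBXO3, FBXO18, FBXO25 by 2 probes, FBXO30, FBXW9 and UBE2L3 by 1 of 3 probes, with differences from 0.46 to 0.68. Without Lamin B2 Kd replicate 3 the probes of FBXO3, FBXO18 and FBXW9 no longer passed, and the other 17 of the 20 did.

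Several genes of the set have more than 1 tested probe, 40 in each comparison. In Lamin A/C Kd all probes of a gene lay on the same side of the controls for 28 of them and on both sides for 12, and in Lamin B2 Kd the counts were the same. From its lowest to its highest probe a gene spread by a median of 0.18 with Lamin A/C depleted and 0.21 with Lamin B2 depleted. FBXL17 had the widest spread, 2.86 and 2.45. FBXO34 was next in Lamin A/C Kd.

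**Figure D4:**
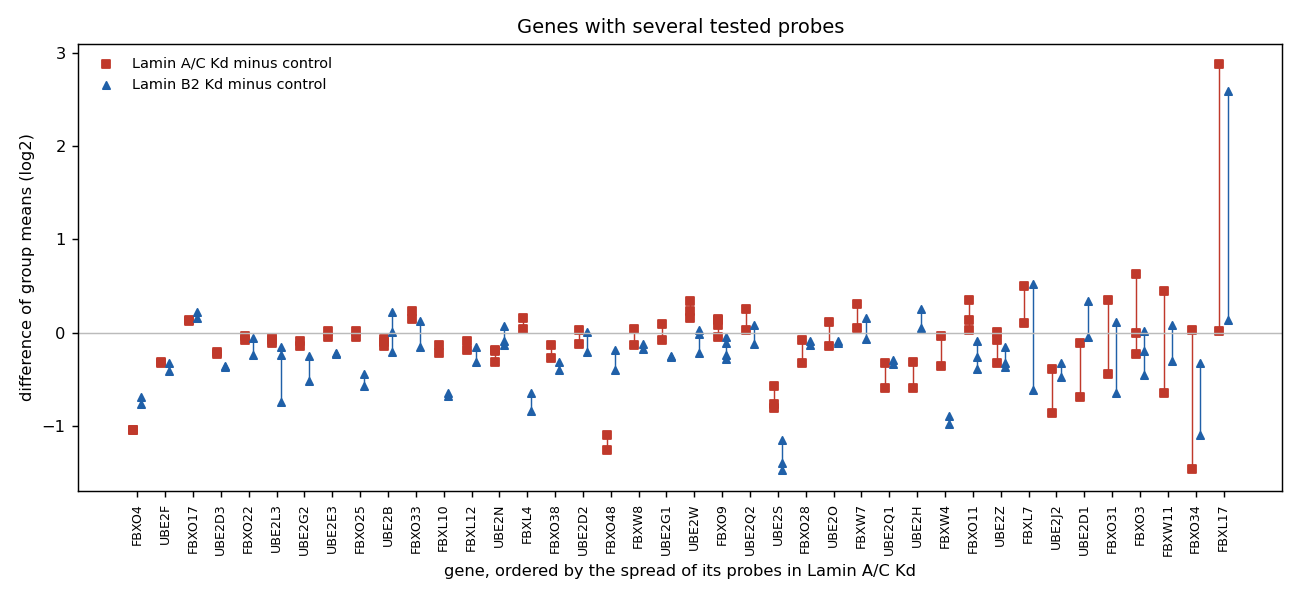
Difference from controls (log2, vertical axis) of each probe of the 40 genes with several tested probes, in Lamin A/C Kd (squares) and Lamin B2 Kd (triangles), ordered by spread in Lamin A/C Kd. Lines join the lowest and highest probe of a gene. FBXO4, FBXO48 and UBE2S have close probes that are all low in Lamin A/C Kd, and FBXL17 and FBXO34 have probes far apart.

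The partners of these enzymes were described from lists chosen with the same results known. Of the ubiquitin, NEDD8 and E1 genes, 17 probes of 6 genes were tested, and 0 were called or passed the adjusted test in limma in any comparison. At an unadjusted p under 0.05 there were 1 in Lamin A/C Kd, 3 in Lamin B2 Kd and 0 between the knockdowns. The share of all probes at that limit was not counted, so nothing is read from such counts, here or below. E2 and F-box genes with other names, such as CDC34, SKP2 and BTRC, gave 11 tested probes and 0 calls in limma, with 2, 2 and 1 at an unadjusted p under 0.05. Of their probes only 1 of BTRC, the beta-TrCP gene, passed the adjusted test, with a difference of 0.59 between the knockdowns (limma adjusted p = 0.00776).

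The cullin ligase core, which comprises cullins, RING subunits, NEDD8 ligases and the COP9 signalosome, had 38 tested probes of 25 genes and 0 called against controls in limma, with 9 and 6 at an unadjusted p under 0.05. With the adjusted p, 8 probes of 6 genes were lower in Lamin A/C Kd, namely DCUN1D1 by 3 probes, DCUN1D5, COPS3, COPS8, GPS1 and CUL4B. Of CUL4B only 1 probe passed, and the other differed by -0.14 (limma adjusted p = 0.544). The median over the list was -0.18, and 21.1% of it passed against 9.15% of all probes. Since the list was chosen with the results known, nothing is read from this share or from that in Lamin B2 Kd. DCUN1D1, which helps attach NEDD8 to cullins, differed by -0.64, -0.62 and -0.81 in Lamin A/C Kd. In Lamin B2 Kd 3 probes were lower, all of DCUN1D3, by -0.64, -0.66 and -0.61 (limma adjusted p = 0.0385, 0.0421 and 0.0351). These 3 probes of 1 gene are 7.89% of the list, against 4.12% of all probes, and 1 of them passed without Lamin B2 Kd replicate 3. Between the knockdowns 15 probes of the list had an unadjusted p under 0.05. By the adjusted p, 5 were higher in Lamin A/C Kd and 4 lower, where 15.6% of all probes passed. Nothing is read from these counts either. The higher ones were CUL7, RNF7 and the 3 DCUN1D3 probes, and the lower ones 1 of CUL4B and the 3 of DCUN1D1. Only CUL7 was called, higher in Lamin A/C Kd by 1.11 (limma adjusted p = 0.00876). Without Lamin B2 Kd replicate 3 it differed by 0.84 and was not called.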

How the data were processed

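RNA of 9 DLD1 cultures, which the study's methods call independent biological replicates, was hybridized to 1 array each. The authors deposited scanner output of Agilent Feature Extraction 10.5, per the labels, holding background-subtracted intensities. They also deposited log2 signals after a 50th percentile shift, centered per row. That file leaves 20266 of 50238 rows blank, joins several probes in 11504, and numbers the Lamin B2 Kd columns unlike the sample titles, so it served as an alternative, with a row's value given to each of its probes.

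The 50th percentile of an array was subtracted from its log2 intensities, and the spots of a probe were averaged without outlier spots. The Lamin B2 Kd replicate 3 spot of a FBXO11 probe was so dropped. A probe counted as well above background if at least 0.5 of its spots did. No spot was saturated. Precision is limited by the 3 arrays of each group. Differences come from limma 3.58.1 (R 4.3.3), fitted over all 9 arrays with moderated variances, and the steps were tested on simulated data. The call, a fold of at least 2 with p under 0.05, takes its fold from the study. Bounds set each array of an undetected group to its lowest signal well above background. Gene names are those of the array, and 97 of 98 matched GRCh38.p14 for the chromosome. Sequences are from the scanner files.

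The members and lists were chosen with earlier results of these data known. Genes named are UBE2E1, FBXL17, UBE2E2 and UBE2E3, members called, the 5 largest rises and falls without overlap per comparison among probes above background on all 6 arrays, the 5 brightest, and genes by role. One member that the rule names is not reported here.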

Additional observations from a re-analysis of the deposited data

How the results depend on the processing

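The FBXL17 control levels lie near background, and each group has 3 arrays. The counts called in Lamin A/C Kd (8), Lamin B2 Kd (6) and between the knockdowns (0) became 16, 21 and 22 at a fold of at least 1.5. Normexp, whose offset of 50 shrinks differences at low signals, called 2 in Lamin A/C Kd. Between the knockdowns the adjusted p called 20, the 75th percentile shift 2, quantile normalization 1 and no filter on detection 1. Leaving out 1 array gave 7 to 8 in Lamin A/C Kd, 4 to 9 in Lamin B2 Kd and 0 to 5 between the knockdowns. The 4 in Lamin B2 Kd came without its replicate 3 and the 9 without replicate 2, and the 5 between the knockdowns without Lamin B2 Kd replicate 2. Other counts called moved by no more than 1.5 times, whereas counts by the adjusted p moved more with the processing. The replicate number as a block gave 8, 6 and 0, and same-numbered samples had correlations of their deviations from -0.0856 to 0.148, so the numbers were not taken to pair the samples. The slide as a block is the same as leaving out Lamin B2 Kd replicate 3. Over the named probes, 668 alternative values stayed as they were, called or not called. A call was lost in 32 and gained in 17, and none of the calls changed direction. Many named probes had no call to lose, so the 32 are not a share of all these values. The causes were not tested.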
